A study of Mus musculus with 12 samples.

Results

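The genes described here are 9 genes that act in, or mark, the tips of the branching ureteric bud of the mouse embryonic kidney: Ret, Gfra1, Etv4, Etv5, Wnt11, Spry1, Sox8, Sox9 and Emx2. They were chosen by name, and every array probe annotated to one of them was taken. The annotation listed 13 probes for 8 of the 9 genes, of 45281 probes in all. Spry1 had no probe listed under its name and was not analysed here. Of the 13 probes, 10 had a detection p-value under 0.05 on at least 3 of the 12 arrays, which left 7 genes among the 14882 genes and unnamed probes tested.

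The ureteric bud is the epithelial tube that branches to form the collecting ducts. The mesenchyme around its tips secretes GDNF, which binds the receptor tyrosine kinase RET and its co-receptor GFRA1 on tip cells. RET signalling turns on the transcription factors ETV4 and ETV5, tip cells secrete WNT11, which in turn maintains Gdnf in the mesenchyme, and Sprouty proteins dampen the signal. SOX8 and SOX9 act alongside RET signalling in the tip, and EMX2 is a homeodomain protein that the bud needs in order to branch. As branching slows toward birth, the trunks behind the tips mature into collecting ducts.

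Total RNA was hybridised to 12 Illumina mouse bead arrays, 3 in each of 4 groups. The paper reports that pairs of kidneys were handled separately, and does not say whether a pair came from a single embryo. Mutants and their wild-type controls were littermates, but which arrays shared a litter was not given in the sources used here. All embryos were of the CD-1 strain, and the groups were wild type (WT) and Pkd1null/null embryos (Pkd1-/-, the mutants) at embryonic day 14.5 (E14.5) and at E17.5. The WT arrays were replicates 34, 57 and 58 at E14.5 and replicates 2, 38 and 41 at E17.5. The mutant arrays were replicates 35, 59 and 65 at E14.5 and replicates 12, 40 and 42 at E17.5. Pkd1 encodes polycystin-1, the membrane protein most often mutated in autosomal dominant polycystic kidney disease, and the mutant carries no functional copy. What the allele removes from the transcript was not given in the sources used here. Whole kidneys were measured, so fewer cells of a type and less RNA per cell cannot be told apart. The p-values measure the spread between these arrays.

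Values below are log2 intensities after background correction and quantile normalization, and a gene was called where its adjusted p was under 0.05 in limma, the linear model used. Levels of different genes were not compared, since each probe has its own brightness. Between 42.8% and 44.8% of all probes were detected on an array, and the median deposited intensity ran from 10.8 on E17.5 WT replicate 41 to 21.5 on E14.5 WT replicate 57. Liver markers averaged 11.87 on E17.5 WT replicate 2 against 7.18 and 8.07 on the other WT arrays of that age and 6.52 to 6.85 in the mutants. The proximal tubule markers averaged 7.63 on E14.5 WT replicate 34 against 6.31 to 6.86 on the other E14.5 arrays. The paper describes mutant kidneys as free of cysts at E14.5 and heavily cystic at E17.5. At E17.5 proximal tubule markers averaged 10.51 to 10.92 on WT arrays and 9.07 to 9.44 on mutant arrays. Loop of Henle and distal tubule markers averaged 9.88 to 10.05 and 9.04 to 9.47. Trunk and collecting duct markers overlapped (9.86 to 9.99 and 9.88 to 9.99). The part of these differences in the results was not tested. Of the cell type markers of a kidney, all 10 cap mesenchyme genes and 18 of 20 ureteric trunk and collecting duct genes were detected and tested. The Pkd1 probe gave 6.36, 6.84 and 6.82 on the WT arrays and 7.81, 7.38 and 7.23 on the mutant arrays at E14.5. At E17.5 it gave 6.80, 6.92 and 7.61 on the WT arrays and 7.63, 7.78 and 7.84 on the mutant arrays. Mutant values were thus the higher ones at both ages, and neither difference was called (adjusted p = 0.726 and 0.135). Where this probe lies relative to the mutation is not known, so it checks nothing about the labels.

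The RefSeq promoter windows of Gfra1 and Etv5 are shown because these were the members called lower with age in both genotypes. Each window holds 250 bases before and 50 bases after a transcription start (GRCm38.p6), and is written 5′ to 3′ on the gene's strand, which is the minus strand for both. Capitals mark GGAA, the core of the sites bound by ETS factors such as ETV4 and ETV5, on either strand (TTCC is its reverse complement).
Gfra1, chr19:58455349-58455648: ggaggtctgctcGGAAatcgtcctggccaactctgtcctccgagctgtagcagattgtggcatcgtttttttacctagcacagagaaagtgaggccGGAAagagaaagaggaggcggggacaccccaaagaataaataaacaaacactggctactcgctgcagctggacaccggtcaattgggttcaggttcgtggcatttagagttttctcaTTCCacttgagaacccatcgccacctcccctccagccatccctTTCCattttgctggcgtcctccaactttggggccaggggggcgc
Etv5, start 1, chr16:22439521-22439820: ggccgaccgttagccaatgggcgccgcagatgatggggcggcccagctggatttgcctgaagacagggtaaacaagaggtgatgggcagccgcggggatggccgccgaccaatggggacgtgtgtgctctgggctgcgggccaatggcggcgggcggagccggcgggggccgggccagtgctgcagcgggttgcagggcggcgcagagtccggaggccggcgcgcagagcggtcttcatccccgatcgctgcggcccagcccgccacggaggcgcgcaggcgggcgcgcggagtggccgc
Etv5, start 2, chr16:22438319-22438618: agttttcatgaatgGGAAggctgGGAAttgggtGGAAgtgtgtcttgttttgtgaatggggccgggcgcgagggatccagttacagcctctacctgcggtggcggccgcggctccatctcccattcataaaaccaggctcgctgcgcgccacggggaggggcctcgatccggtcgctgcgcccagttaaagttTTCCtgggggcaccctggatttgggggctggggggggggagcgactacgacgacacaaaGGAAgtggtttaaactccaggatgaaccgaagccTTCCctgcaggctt

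The Gfra1 window held 4 matches to GGAA, and the Etv5 windows held 0 at the upstream start and 6 at the other. This core is so short that 96.0% of all 32851 promoter windows held it, with a median of 3 matches. The longer letters CCGGAA, which contain the core, were found once in the Gfra1 window, in neither Etv5 window, and in 14.9% of all windows. AGGTCA, the hexamer bound by retinoic acid receptors, and CTTTGA, the core bound by TCF and LEF factors, were in none of the 3 windows, against 16.3% and 16% of all windows. A match to letters is not evidence of binding. The RefSeq table held windows for 6 of the 9 genes.

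Ret (chromosome 6, 118151748 to 118197744, GRCm38.p6) encodes the receptor itself. At E14.5 it gave 8.64, 8.56 and 8.67 on the WT arrays and 8.46, 8.91 and 8.73 on the mutant arrays. By E17.5 it gave 8.11, 8.15 and 8.72 on the WT arrays and 8.40, 8.31 and 8.29 on the mutant arrays. In WT, replicate 41 at E17.5 lay above every E14.5 WT array while its 2 companions lay below them, and in mutants all E17.5 arrays lay below all E14.5 arrays. The change with age was −0.30 ± 0.16 (SE, 95% interval −0.65 to 0.05, adjusted p = 0.149) in WT and −0.37 ± 0.16 (−0.72 to −0.02, adjusted p = 0.0807) in mutants. Neither was called. Without E17.5 WT replicate 2 the WT change was −0.19 (adjusted p = 0.395). Without E17.5 WT replicate 41, the array with the lowest median intensity, both were called, at −0.50 (adjusted p = 0.00965) in WT and −0.37 (adjusted p = 0.0190) in mutants, and the mutant change was also called without E14.5 mutant replicate 35 (−0.49, adjusted p = 0.0399). A second Ret probe differed by −0.15 in WT and −0.14 in mutants with age, and a probe for another Ret transcript was not detected on any array. Between genotypes, Ret differed by 0.08 at E14.5 (−0.27 to 0.42) and by 0.01 at E17.5 (−0.34 to 0.35).

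Gfra1 (chromosome 19, 58235581 to 58455946), which encodes the co-receptor that presents GDNF to RET, fell with age in both genotypes. It gave 6.37, 6.61 and 6.90 on the WT arrays and 6.55, 6.94 and 6.84 on the mutant arrays at E14.5. At E17.5 the values were 6.20, 6.36 and 6.12 on the WT arrays and 6.27, 6.10 and 6.18 on the mutant arrays. The E17.5 arrays lay below the E14.5 arrays in both genotypes, by a margin of only 0.01 in WT. Gfra1 fell 1.32-fold in WT (log2 −0.40 ± 0.14 SE, adjusted p = 0.0404). In mutants the fall was 1.51-fold (−0.60 ± 0.14, adjusted p = 0.00580). The WT call was lost under 12 of 24 alternatives, among them leaving out E14.5 WT replicate 58 (−0.26, adjusted p = 0.168) or E17.5 WT replicate 41 (−0.34, adjusted p = 0.118). Dropping replicate 57 or 2 of the WT, or mutant replicate 65, 40 or 42, ended it as well (adjusted p = 0.0827, 0.0853, 0.0527, 0.0513 and 0.0529). The mutant call held under all 24 alternatives run. Mutants differed from WT by 0.15 (−0.16 to 0.46) at E14.5 and −0.05 (−0.36 to 0.26) at E17.5.

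**Figure D1:**
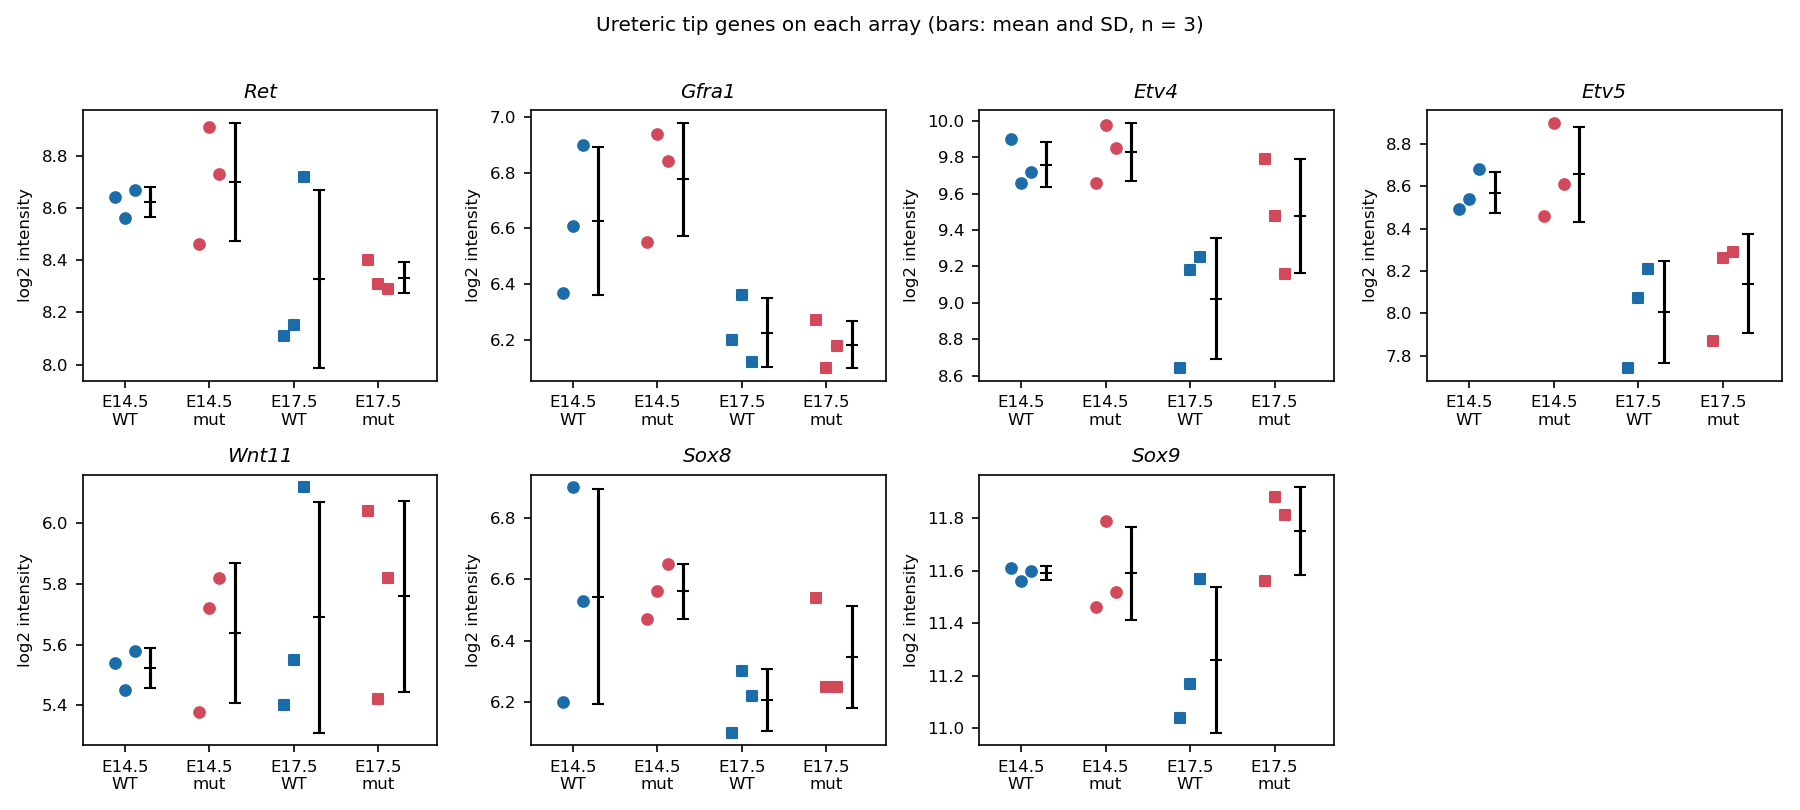
Log2 intensity of the 7 detected ureteric tip genes on each of the 12 arrays, with a panel for each gene and its own vertical scale. Points are single arrays in replicate order, blue for WT and red for mutants (mut), circles for E14.5 and squares for E17.5, and bars give the mean and SD of 3 arrays. Gfra1 and Etv5 lie lower at E17.5 in both genotypes, and E17.5 WT replicate 41 is the highest WT array of its age for 5 of the 7 genes, Ret, Wnt11, Etv4, Etv5 and Sox9.

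Etv4 (chromosome 11, 101769747 to 101785310) encodes an ETS transcription factor induced by RET signalling. At E14.5 it gave 9.90, 9.66 and 9.72 on the WT arrays and 9.66, 9.98 and 9.85 on the mutant arrays. By E17.5 the values were 8.64, 9.18 and 9.25 on the WT arrays and 9.79, 9.48 and 9.16 on the mutant arrays. All 3 WT arrays at E17.5 were below all 3 at E14.5, whereas mutant replicate 12 at E17.5 reached the E14.5 range. The fall in WT was 1.66-fold (−0.73 ± 0.18 SE, 95% interval −1.14 to −0.33, adjusted p = 0.00760), the largest of the 7 genes in any of the 4 pairwise comparisons, and was called under all 24 alternatives. In mutants the difference with age was −0.35 (−0.76 to 0.05, adjusted p = 0.147). The difference between these changes was 0.38 (−0.19 to 0.95, adjusted p = 0.630), so a call in WT alone does not show that the genotypes differed. At E17.5 the mutants exceeded WT by 0.45 (0.05 to 0.86, adjusted p = 0.201), with WT replicate 41 at 9.25 above mutant replicate 42 at 9.16. Without E17.5 WT replicate 2, the array with high liver markers, that value was 0.26 (adjusted p = 0.467), and the WT fall with age was −0.54 (adjusted p = 0.0263).

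Etv5 (chromosome 16, 22381313 to 22439570), the close relative that works with Etv4 downstream of RET, fell with age by a similar factor in both genotypes. It gave 8.49, 8.54 and 8.68 on the WT arrays and 8.46, 8.90 and 8.61 on the mutant arrays at E14.5. The E17.5 values were 7.74, 8.07 and 8.21 on the WT arrays and 7.87, 8.26 and 8.29 on the mutant arrays. Each E17.5 array lay below each E14.5 array of its genotype. Etv5 fell 1.48-fold in WT (−0.56 ± 0.16 SE, adjusted p = 0.0132). The fall in mutants was 1.43-fold (−0.51 ± 0.16, adjusted p = 0.0213), and the difference between these changes was 0.05 (−0.44 to 0.54). The WT call was lost without E14.5 WT replicate 58 (−0.51, adjusted p = 0.0505) or E17.5 WT replicate 2 (−0.43, adjusted p = 0.0510). The mutant call was lost without E14.5 mutant replicate 59 (−0.39, adjusted p = 0.0880) or E17.5 mutant replicate 12 (−0.38, adjusted p = 0.0820). A second Etv5 probe changed less, by −0.32 in each genotype, and was not called (adjusted p over all kept probes = 0.0983 and 0.0912). Mutants differed from WT by 0.08 (−0.26 to 0.43) at E14.5 and by 0.14 (−0.21 to 0.48) at E17.5.

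Wnt11 (chromosome 7, 98835084 to 98854747), the ligand that tips send to the mesenchyme, was close to background and was detected on 9 of 12 arrays. It gave 5.54, 5.45 and 5.58 on the WT arrays and 5.38, 5.72 and 5.82 on the mutant arrays at E14.5. At E17.5 it gave 5.40, 5.55 and 6.12 on the WT arrays and 6.04, 5.42 and 5.82 on the mutant arrays. The lowest signal among detected probes was 5.44 to 5.58 on these arrays, so several of these values sit at the edge of detection. The highest values, on E17.5 WT replicate 41 and E17.5 mutant replicate 12, were from the arrays with the lowest median intensities of all 12 (10.8 and 14.0), and the part of brightness in them was not tested. No comparison was called, and the change with age was 0.16 (−0.28 to 0.60) in WT and 0.12 (−0.31 to 0.56) in mutants.

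Sox8 (chromosome 17, 25565893 to 25570686) encodes a transcription factor that overlaps in function with SOX9 in the tip, and lies 969 kb from Pkd1 on the same chromosome. It gave 6.20, 6.90 and 6.53 on the WT arrays and 6.47, 6.56 and 6.65 on the mutant arrays at E14.5. The E17.5 readings were 6.10, 6.30 and 6.22 on the WT arrays and 6.54, 6.25 and 6.25 on the mutant arrays. E14.5 WT replicate 34, the array with high proximal tubule markers, read lowest of its group and inside the E17.5 range. The difference with age was −0.33 (−0.67 to 0.01, adjusted p = 0.102) in WT and −0.22 (−0.56 to 0.12, adjusted p = 0.285) in mutants, neither of which was called. Without E14.5 WT replicate 34 the WT difference was −0.51 and was called (adjusted p = 0.0131). Mutants differed from WT by 0.02 (−0.32 to 0.36) at E14.5 and by 0.14 (−0.20 to 0.48) at E17.5. A second Sox8 probe was detected on 1 array, of an E14.5 mutant, and was left out.

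Sox9 (chromosome 11, 112782210 to 112787757), which acts with SOX8 to raise the response of tip cells to RET signalling and also marks other renal epithelia, was the member closest to a call between genotypes. At E14.5 it gave 11.61, 11.56 and 11.60 on the WT arrays and 11.46, 11.79 and 11.52 on the mutant arrays. At E17.5 it gave 11.04, 11.17 and 11.57 on the WT arrays and 11.56, 11.88 and 11.81 on the mutant arrays. The E17.5 groups overlapped by 0.01, through WT replicate 41 at 11.57 and mutant replicate 12 at 11.56. At E17.5 the mutants exceeded WT by 0.49 ± 0.14 (SE, 95% interval 0.17 to 0.81; 1.41-fold, adjusted p = 0.0899), which was not called. Without E17.5 WT replicate 41 the value was 0.65 and was called (adjusted p = 0.0354), and without E17.5 WT replicate 2 it was 0.38 (adjusted p = 0.239). Limma's array weights put it at 0.66 and called it (adjusted p = 0.00175). They gave weights of 0.569, 3.25 and 0.321 to E17.5 WT replicates 2, 38 and 41, so the WT value rested mostly on replicate 38. With these weights 2081 features were called for genotype at E17.5, against 472 in the main fit. The second Sox9 probe gave 0.34 (adjusted p over all kept probes = 0.222).

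With age, Sox9 differed by −0.33 (−0.64 to −0.01, adjusted p = 0.0877) in WT and by 0.16 (−0.15 to 0.48, adjusted p = 0.385) in mutants, so the fitted values pointed opposite ways. The difference between these changes was 0.49 (0.04 to 0.94) and was not called (adjusted p = 0.432). With array weights it was 0.69 and was called (adjusted p = 0.0302), where 332 features were called against 26 in the main fit. Without E17.5 WT replicate 41 the WT change was −0.48 and was called (adjusted p = 0.0128), and without E17.5 WT replicate 2 it was −0.22 (adjusted p = 0.271). The second Sox9 probe fell in WT with age and was called, by −0.42 (adjusted p over all kept probes = 0.0363), and gave −0.05 in mutants. At E14.5 the genotypes differed by 0.00 (−0.32 to 0.32).

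Emx2 (chromosome 19, 59458690 to 59465357) had 1 probe, which was not detected on any of the 12 arrays and read 4.60 to 4.84. No level or change is given for it. Spry1 (chromosome 3, 37639947 to 37644599), the Sprouty protein that restrains RET signalling in the bud, had no named probe.

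No member was called between genotypes at either age. At E14.5 limma called 0 of 7 members, against 0.0538% of all 14882 features, and 0 of 7 passed an unadjusted p under 0.05 (3.20% of features). Their differences ran from 0.00 to 0.15 with a median of 0.08, and the median of all features was 0.00. The widest 95% interval reached 0.55, for Wnt11, so 2-fold on this log2 scale lay outside the interval of every member tested at E14.5. The scale narrows differences between dim probes. On E14.5 WT replicate 34, deposited intensities of 31.5 for Wnt11 and 13.1 for the second Sox8 probe became 5.54 and 5.03. The bound of 2-fold therefore cannot be carried over to the RNA of Wnt11. The same holds for Gfra1 and Sox8, which were also dim, with deposited intensities of 69.9 and 59.9 on that array. What change in RNA the intervals of these genes exclude was not tested. At E17.5 limma again called 0 of 7 members, against 3.17% of features. Etv4 and Sox9 passed an unadjusted p under 0.05, as did 20.1% of features. Their 95% intervals were 0.05 to 0.86 and 0.17 to 0.81, so the lack of a call does not show that genotype left them unchanged. The median difference of the members was 0.14 beside 0.02 for all features. Without E17.5 WT replicate 2, the array with high liver markers, that median was 0.00, with Ret, Gfra1 and Wnt11 below 0, and with any other single array left out it ran from 0.04 (without E17.5 mutant replicate 12) to 0.24 (without E17.5 WT replicate 41). No member had mutant and WT arrays that did not overlap, at either age, while 9.12% of features did at E14.5 and 24.2% at E17.5.

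The effect of genotype was next compared between the ages. No member was called, against 0.175% of features, and Sox9 alone passed an unadjusted p under 0.05 (10.7% of features). The thresholds the study used, a change of at least 2-fold with a p of at most 0.05 (adjusted for the age comparisons), were met by 0 of 7 members in each of the 4 pairwise comparisons. They were met by 0.181% of features for genotype at E14.5, 0.961% for genotype at E17.5, 8.87% for age in WT and 8.73% for age in mutants. These shares rest on the normalization, detection filter and single probe per gene used here, and are not the study's own counts.

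**Figure D2:**
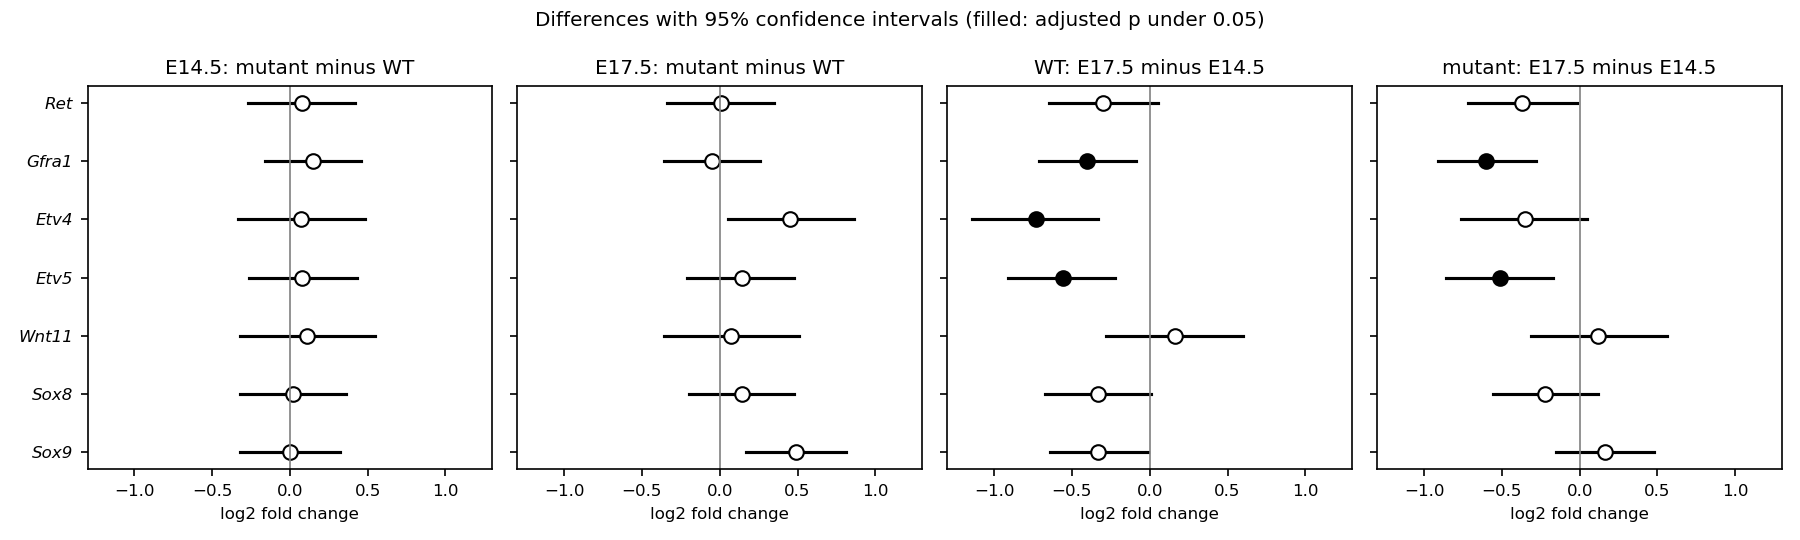
Log2 fold changes of the 7 tip genes in the 4 pairwise comparisons, with 95% confidence intervals as lines. Filled points were called (adjusted p under 0.05 over all 14882 features) and open points were not. The calls are Gfra1, Etv4 and Etv5 with age in WT and Gfra1 and Etv5 with age in mutants, all downward.

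With age, the GDNF co-receptor and the ETS factors were the members called, though Ret gave fitted values close to some of theirs. In WT 3 of 7 members fell (Gfra1, Etv4 and Etv5) and 0 rose, where 23.5% of all features fell. In mutants 2 of 7 fell (Gfra1 and Etv5) and 0 rose, where 21.3% of features fell. Members whose E17.5 arrays all lay below the E14.5 arrays numbered 3 in WT (Gfra1, Etv4 and Etv5) and 3 in mutants (Ret, Gfra1 and Etv5), against 29.2% and 28.5% of features. The median change of the members was −0.33 in WT and −0.35 in mutants, beside −0.05 and −0.02 for all features. Wnt11 was the exception in both genotypes, with fitted values above 0, and Sox9 was a further exception in mutants. Array weights also called Ret (−0.46 in WT, −0.40 in mutants; adjusted p = 0.00247 and 0.00832) and Sox8 (−0.28 and −0.31, adjusted p = 0.0331 and 0.0276). They called Etv4 in mutants as well (−0.42, adjusted p = 0.0198), and Sox9 lower in WT (−0.42, adjusted p = 0.00251) but higher in mutants (0.27, adjusted p = 0.0351). So large a share of the array changed between these ages that counts of 3 and 2 among 7 genes show nothing particular to the tip genes.

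Gdnf, the ligand made by the mesenchyme, also fell. It gave 11.30, 11.18 and 11.25 on the WT arrays and 11.17, 11.52 and 11.26 on the mutant arrays at E14.5. At E17.5 it gave 10.72, 10.68 and 10.78 on the WT arrays and 10.74, 11.03 and 10.88 on the mutant arrays. No E17.5 array reached the E14.5 arrays of either genotype. The fall was −0.51 ± 0.11 (SE, adjusted p = 0.00265) in WT and −0.43 ± 0.11 (adjusted p = 0.00737) in mutants, and both calls held under all 24 alternatives run. Mutants differed from WT by 0.08 (−0.16 to 0.31) at E14.5 and by 0.16 (−0.08 to 0.39, adjusted p = 0.445) at E17.5, where array weights gave 0.27 and a call (adjusted p = 0.0490). Artn, another ligand of the GDNF family, rose with age in mutants by 0.57 (adjusted p = 0.0257) and differed by 0.14 in WT (adjusted p = 0.559). Without E14.5 mutant replicate 65 the Artn change was 0.47 and was not called (adjusted p = 0.102), and leaving out E14.5 mutant replicate 59 or E17.5 mutant replicates 40 or 42 also ended its call (adjusted p = 0.0969, 0.0901 and 0.0603). The other 5 ligands and co-receptors listed were not tested.

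Of 11 listed RET targets and feedback inhibitors, 8 were tested, and 7 of them were called in no comparison. With age 1 rose and 0 fell in each genotype. Of all features 20.2% rose and 23.5% fell in WT, and 21.7% rose and 21.3% fell in mutants. Between genotypes 0 of 8 were called, beside 0.0538% of features at E14.5 and 3.17% at E17.5. The 7 uncalled genes were the Sprouty gene Spry4, the ERK phosphatase gene Dusp6, the Ras pathway inhibitor gene Spred1, the chemokine receptor gene Cxcr4, the transcription factor gene Myb, the HGF receptor gene Met and the matrix metalloproteinase gene Mmp14. Dusp6 gave 12.23, 12.39 and 12.30 on the WT arrays and 12.54, 12.36 and 12.45 on the mutant arrays at E14.5, and 12.51, 12.45 and 12.24 on the WT arrays and 12.51, 12.79 and 12.66 on the mutant arrays at E17.5. Its mutant arrays at E17.5 met or exceeded the highest WT array, and the other pairs of groups overlapped. The genotype difference of Dusp6 at E17.5 was 0.26 (0.03 to 0.49, adjusted p = 0.201), and that of Spred1 was 0.25 (0.08 to 0.43, adjusted p = 0.115). Both were called only with array weights (0.30 and 0.26, adjusted p = 0.0232 and 0.0211). Cxcr4 ranged from 8.35 to 9.17 over the arrays and Spry4 from 6.02 to 6.63.

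Ccn4, which encodes a secreted matricellular protein, was the exception and rose with age. It gave 8.91, 8.78 and 8.73 on the WT arrays and 8.85, 8.57 and 8.43 on the mutant arrays at E14.5, and 9.51, 9.67 and 9.31 on the WT arrays and 9.86, 9.77 and 9.65 on the mutant arrays at E17.5. Every E17.5 array was above every E14.5 array. The rise was 0.69 (adjusted p = 0.00125) in WT and 1.14 (adjusted p = 4.97e-05) in mutants, and the difference between these changes was 0.46 (0.06 to 0.85, adjusted p = 0.408). The median change of the 8 genes with age was 0.01 in WT and 0.00 in mutants, beside −0.05 and −0.02 for all features.

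Of 19 listed genes that control Gdnf in the mesenchyme and stroma, 12 were tested. In WT 5 fell and 2 rose with age, beside 23.5% and 20.2% of all features, and in mutants 4 fell and 2 rose, beside 21.3% and 21.7%. Eya1, a transcriptional co-activator needed for Gdnf expression, fell by 1.29 in WT and by 1.15 in mutants (adjusted p = 8.01e-06 and 1.93e-05). Robo2, the SLIT receptor that confines Gdnf to the posterior mesenchyme, fell by 0.89 and by 0.74 (adjusted p = 0.000296 and 0.00096), and Foxc1 fell by 0.67 and by 0.74. Npnt, which encodes the integrin ligand nephronectin, rose by 0.93 in WT and 0.89 in mutants. Bmp4, which opposes GDNF in the bud, rose by 0.35 and 0.53 on its brightest probe, but the mean of its probes gave 0.11 and 0.09 and was not called. Its WT call was also lost without E14.5 WT replicate 34, 57 or 58 or E17.5 WT replicate 38 or 41 (adjusted p = 0.0506, 0.0574, 0.153, 0.0676 and 0.130). None of the 12 was called between genotypes at either age.

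**Figure D3:**
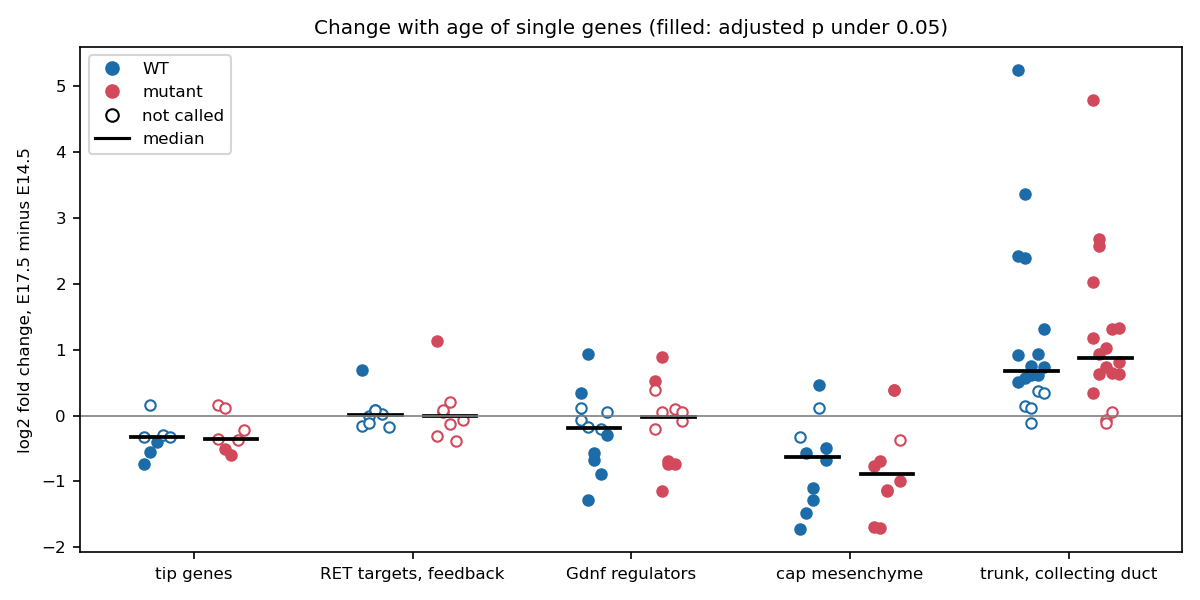
Log2 fold change from E14.5 to E17.5 for each tested gene of 5 lists, blue in WT and red in mutants. Filled points were called, open points were not, and black lines are list medians. Tip genes lie at medians of −0.33 and −0.35, cap mesenchyme genes below them, and trunk and collecting duct genes above 0 at 0.68 and 0.87.

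Markers of the maturing trunk went the other way, but this rise was not particular to the trunk. In WT all 10 tested proximal tubule genes rose with age, with a median of 3.72. All 7 loop of Henle and distal tubule genes rose as well (median 3.13), as did all 7 endothelial genes and 4 of 5 podocyte genes. Of 10 stroma genes 1 rose and 3 fell. Of 18 tested trunk and collecting duct genes, 13 rose and 0 fell with age in WT, where 20.2% of features rose, and in mutants 15 rose and 0 fell, where 21.7% of features rose. Aqp2, the vasopressin-regulated water channel, rose at least 21.9-fold in WT and at least 15.4-fold in mutants, and the basolateral water channel gene Aqp3 rose by 3.36 and 2.68 on the log2 scale. The mean log2 intensity of these 18 genes ran from 8.56 to 9.14 on E14.5 arrays and from 9.86 to 9.99 on E17.5 arrays. Hoxb7, a homeobox gene of the ureteric epithelium, stayed between 12.14 and 12.53 on all arrays and was not called with age, at 0.12 (−0.09 to 0.33) in WT and −0.06 (−0.27 to 0.15) in mutants. Cap mesenchyme markers averaged 8.87 to 9.01 at E14.5 and 8.05 to 8.43 at E17.5, and proliferation markers 10.21 to 10.96 and 9.60 to 10.36. The part of these shifts in the fall of the tip genes was not tested.

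At E17.5, 1 of 4 tested relatives of the members and 1 of 18 trunk and collecting duct genes were called between genotypes. None was called among the 2 GDNF family genes, 8 RET targets and feedback inhibitors, 12 Gdnf regulators and 13 FGF and Wnt genes tested. Of all features 3.17% were called, so these calls show nothing particular to genes near the tip programme. Etv1, the third member of the ETS subfamily that holds Etv4 and Etv5, gave 8.70, 8.84 and 8.89 on the WT arrays and 9.41, 9.06 and 9.26 on the mutant arrays at E14.5. At E17.5 Etv1 gave 8.52, 8.71 and 8.49 on the WT arrays and 8.93, 9.14 and 9.04 on the mutant arrays. Every mutant array exceeded every WT array of its age. The difference was 0.43 (0.18 to 0.67, adjusted p = 0.654) at E14.5 and 0.46 (0.22 to 0.71, adjusted p = 0.0484) at E17.5. That call was lost under 18 of 24 alternatives, and with the mean of its 3 probes in place of the brightest the difference was 0.09 (adjusted p = 0.767). It was lost without any single array other than E14.5 WT replicate 34 and E14.5 mutant replicate 35, and the highest adjusted p, 0.158, came without E17.5 mutant replicate 40 (0.41).

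Wnt7b, a trunk ligand required for collecting duct elongation, gave 8.50, 8.16 and 7.99 on the WT arrays and 8.70, 8.68 and 8.42 on the mutant arrays at E14.5. At E17.5 Wnt7b gave 8.81 to 9.08 on the WT arrays and 9.41, 9.75 and 9.69 on the mutant arrays. The E17.5 groups did not overlap and the E14.5 groups did. At E17.5 mutants were higher by 0.65 (0.33 to 0.97, adjusted p = 0.0387), and the call was lost under 15 of 24 alternatives, with an adjusted p of up to 0.133 when E17.5 mutant replicate 40 was left out. Leaving out any E14.5 mutant array, any E17.5 WT array or E17.5 mutant replicate 42 also ended it, at adjusted p values from 0.0516 to 0.118. At E14.5 the difference was 0.38 (0.06 to 0.70) and was not called, and the difference between the ages was 0.27 (adjusted p = 0.677).

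**Figure D4:**
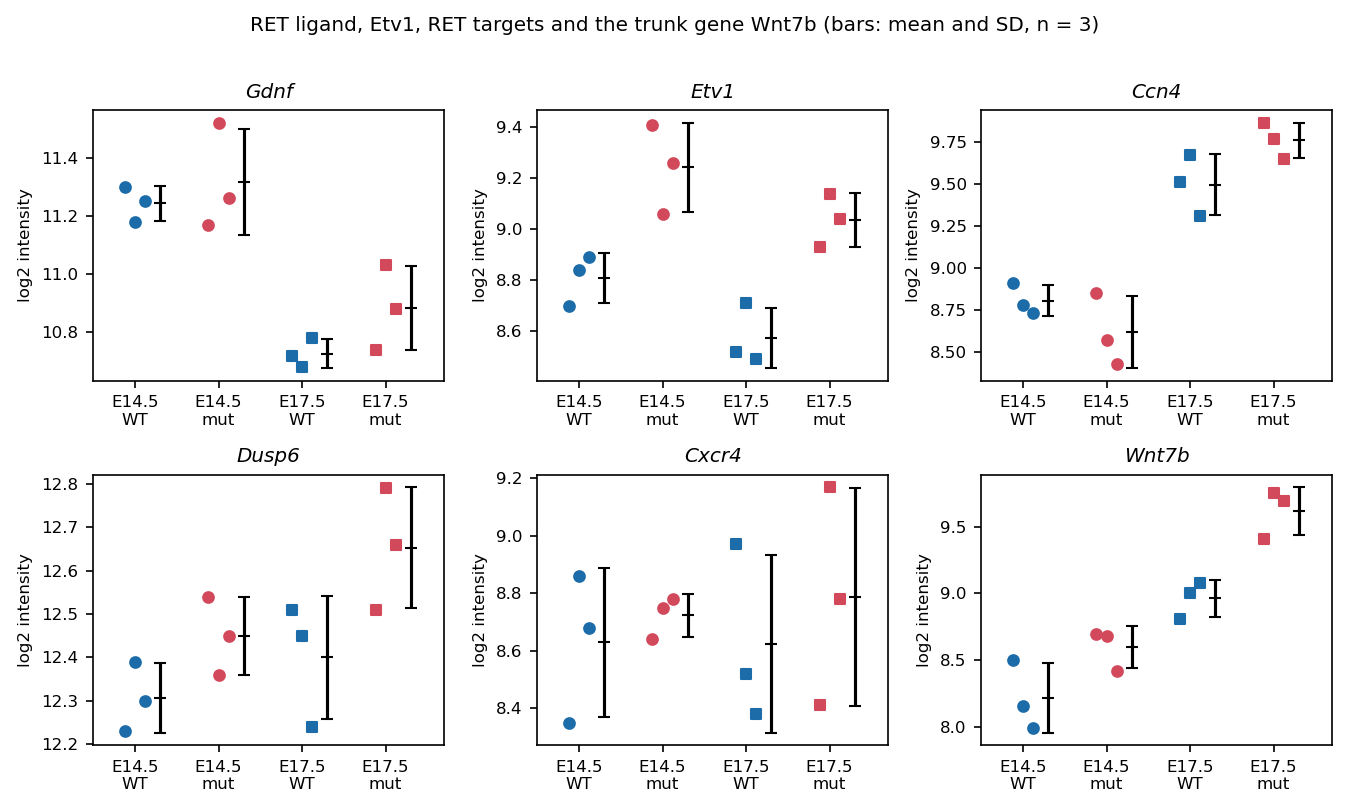
Log2 intensity on each array of Gdnf, Etv1, the RET pathway genes Ccn4, Dusp6 and Cxcr4, and the trunk gene Wnt7b, each panel with its own vertical scale. Points are single arrays in replicate order, blue for WT and red for mutants (mut), circles for E14.5 and squares for E17.5, and bars give the mean and SD of 3 arrays. Gdnf is lower and Ccn4 higher at E17.5 in both genotypes, and Etv1 is higher in mutants at both ages.

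Among the 12 arrays, the members varied together to different degrees. Pearson's r over the 12 arrays was 0.81 for Ret with Etv5, 0.79 for Gfra1 with Etv5 and 0.75 for Ret with Etv4, while Wnt11 gave −0.12 with Gfra1, −0.09 with Etv5, 0.14 with Etv4 and 0.35 with Ret. These arrays share the split by age, and after each group's mean was taken out r was 0.59 for Ret with Etv5, 0.29 for Gfra1 with Etv5 and 0.88 for Sox9 with Etv5, and Wnt11 gave 0.81 with Ret and 0.59 with Etv4. The mean of the 7 standardized members was lowest on E17.5 WT replicates 2 and 38 (−1.54 and −0.83), and highest on E14.5 mutant replicates 59 and 65 (1.13 and 0.76). Replicate 41, the remaining E17.5 WT array, was at −0.02.

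The genes whose values most resembled each member over the 12 arrays were found by Pearson's r across the 11616 named genes tested. They were Poll for Ret (0.961), Depdc1b for Gfra1 (0.950), Ttl for Etv4 (0.939), Dbn1 for Etv5 (0.987), Dym for Wnt11 (0.899), E2f7 for Sox8 (0.928) and Trim27 for Sox9 (0.929). For the mean of the members it was Mb21d2 (0.958). With so many features and 12 arrays, high values of r are reached by many genes, and the arrays share their age groups.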

How the data were processed

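The authors hybridised biotinylated cRNA to Illumina mouse bead arrays, extracted the values with BeadStudio and deposited, for each probe and array, an intensity that was not normalized between arrays and a detection p-value. Values at or below 0 made up 31.3 to 34.0% of an array, so a background had been subtracted. The authors' normalized value table, on a linear intensity scale, served as an alternative. The genome build was not given in the sources used here, and gene positions are from RefSeq (GRCm38.p6).

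Intensities were corrected by normexp with the detection p-values (offset 16), quantile normalized and taken to log2 in limma 3.58.1 under R 4.3.3. Probes with a detection p-value under 0.05 on at least 3 arrays were kept (21526 of 45281). Of all probes, 34885 had 1 gene symbol in the platform annotation, 18 had several and 10378 had none, and the brightest kept probe stood for a gene (11616 genes and 3266 unnamed probes). One model over the 4 groups was fitted with lmFit and eBayes, and p-values were adjusted by Benjamini-Hochberg over all 14882 features. The arrays' number limits the precision. In simulated data 90.5 to 92.0% of changes of 1 log2 unit were recovered in the pairwise comparisons, and 71.5% for the difference of the genotype effects. No smaller change was simulated, while the largest of any member was −0.73, so these rates do not tell how often changes of the members' size would be called. A lower bound ("at least") was set against the lowest signal of detected probes where a gene was undetected on every array of a group.

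Members and lists were chosen with earlier results of these data known. All 9 members, Gdnf and the RET targets were named whatever their values, with up to 6 called genes per list and comparison. The alternatives were other background corrections, offsets, normalizations, filters, probe summaries and variance models, the authors' table, array weights, the 6 arrays compared, and each array left out in turn.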

Additional observations from a re-analysis of the deposited data

How the results depend on the processing

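No called value of a member or named gene changed direction under any alternative run. Of 828 values of the members, 794 stayed on their side of the threshold, 16 lost a call and 18 gained one. Array weights alone gave 9 of the gains, and 38 values that were not called changed sign. The Etv4 fall with age in WT and the Gfra1 fall in mutants held throughout. Wnt11 has no value with probes detected on all 12 arrays. Other scalings moved the median of all features by at most 0.08.

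The counts of called features over the whole array moved as follows. For genotype at E14.5 the count of 8 became 5 in the authors' table, 4 with probes detected on all arrays, 48 with array weights and 2 with the 6 arrays compared, and ran from 4 (dropping E14.5 mutant replicate 59 or 65, with 5 on dropping mutant replicate 12 or 40 of E17.5) to 11 with an array left out. For genotype at E17.5 the count of 472 became 200 and 199 with intensities floored at 1 after or before normalization, 229 in the authors' table, 2081 with array weights and 183 with the 6 arrays compared, and ran from 135 (without E17.5 mutant replicate 40) to 523. It was at most 290 when WT replicate 58, 2 or 41 or mutant replicate 59, 65, 12 or 42 was dropped. For the difference of the genotype effects the count of 26 became 14 with either floor, 44 with an offset of 50, 5 in the authors' table, 2 with probes detected on all arrays, 42 with a trended robust variance and 332 with array weights, and ran from 18 to 39 with an array left out. The counts for age kept within 1.5 times, from 5213 to 6822 in WT and from 5072 to 6774 in mutants with an array left out. The cause of these shifts was not tested.

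The paper describes WT and mutant littermates, but the labels do not say which arrays shared a litter. No paired analysis was possible, so any pairing by litter was left out of the fits. The replicate numbers in the labels mark groups or single arrays, and the arrays of different groups share no number. Probes near background, such as that of Wnt11, limit what can be read from small differences.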

Other observations

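The listed FGF and Wnt branching genes hold ligands and receptors. Of 13 tested, 3 fell and 1 rose with age in WT, beside 23.5% and 20.2% of all features, and 3 fell and 1 rose in mutants, beside 21.3% and 21.7%, so the share that fell was near that of the array and the share that rose was below it. Fgf10, a ligand that supports the bud beside GDNF, fell by 0.49 in WT (adjusted p = 0.00488) and by 0.31 in mutants (adjusted p = 0.0478). Fgf7, a stromal ligand that promotes bud growth, fell by 1.02 and by 0.73 (adjusted p = 0.00509 and 0.0279). Wnt9b, which the ureteric epithelium sends to nephron progenitors, rose by 0.88 in WT (adjusted p = 0.00154) and 0.48 in mutants (adjusted p = 0.0367). The Frizzled receptor gene Fzd4 fell in mutants by 0.42 (adjusted p = 0.00662) and gave 0.05 in WT (adjusted p = 0.741), and the difference between these changes was −0.47 (adjusted p = 0.316). None of the 13 was called between genotypes. Fzd4 came nearest, lower in mutants at E17.5 by 0.42 (adjusted p = 0.0533) with every mutant array below every WT array, and this was called with median scaling (−0.47, adjusted p = 0.0344), probes detected on all 12 arrays (−0.42, adjusted p = 0.0489) and array weights (−0.33, adjusted p = 0.0112). The mutant call of Fgf10 was lost without any of 9 arrays (adjusted p of up to 0.154 without E17.5 mutant replicate 40), that of Fgf7 without E14.5 mutant replicate 35 (−0.41, adjusted p = 0.0845) or 65 (−0.74, 0.0653) or E17.5 mutant replicate 12 (−0.77, 0.0504) or 42 (−0.62, 0.0939), and that of Wnt9b without E14.5 mutant replicate 35 or 65 or E17.5 mutant replicate 40 or 42 (up to 0.141).

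Relatives of the members went separate ways. Spry3, of the Sprouty family, fell with age by 1.16 in WT and by 0.88 in mutants (adjusted p = 0.000336 and 0.00192), whereas Emx1, the relative of Emx2, was higher at E17.5 by 1.06 in WT (adjusted p = 0.000232) and at least 1.56-fold in mutants (adjusted p = 0.000501). It was detected on 1 of 3 WT arrays and 0 of 3 mutant arrays at E14.5, so the WT value starts from a mean of 5.34 at the edge of detection, and on all arrays at E17.5.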
